A study of Mus musculus with 12 samples.

Results

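The genes described here are 6 cytosolic sulfotransferases of mouse liver, Sult2a8, Sult1a1, Sult1d1, Sult1b1, Sult5a1 and Sult1c2. They were taken by symbol from the 19252 genes of a table of transcript abundance, by a rule that uses names and no measured value. The list of names was drawn up with earlier results of these data known, and it leaves out other family members such as Sult2a7. Counts of calls among the 6 therefore describe these genes and not the family. The table covers 12 RNA libraries of C57BL/6 mouse liver in 3 groups of 4. One group was fed a normal fat diet (NFD), another a diet high in fat (HFD), and the third the high fat diet with N-acetylcysteine (NAC_HFD), an acetylated form of the amino acid cysteine. The labels give 14 weeks of feeding for all 3 groups, NAC at 2 g per L of drinking water in the third, and an age of 8 weeks that is not tied to the start or the end of feeding. They name neither the sex nor the make-up of the diets, and they do not say that the numbered replicates are separate animals, so p-values measure only the spread between these samples.

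Cytosolic sulfotransferases move a sulfonate group from the donor 3'-phosphoadenosine-5'-phosphosulfate (PAPS) onto hydroxyl or amino groups of hormones, bile acids, neurotransmitters and drugs. The product is more soluble in water and is usually less active and more readily excreted, which makes these enzymes, with the glucuronosyltransferases, a main conjugation system of the liver. PAPS is made from ATP and inorganic sulfate by the PAPS synthases, and much of the sulfate of the body comes from oxidation of cysteine. SULT1 enzymes act mainly on phenols and catechols, and SULT2 enzymes on hydroxysteroids and bile acids.

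Values are TPM, a measure of transcript abundance that is scaled by transcript length and to a fixed library total, so levels can be compared between genes. The files keep no read depth, so depth is unknown and no counting interval is given. Differences are log2 fold changes on the scale log2(TPM + 1), which understates the change of low genes, from limma fits across all 11376 genes that reached 1 TPM in at least 4 of 12 libraries. A difference was called at an adjusted p of up to 0.05, with adjustment over all tested genes. All 6 genes passed the floor. Sult1c2 did so through its high fat libraries, with 1 NFD library at 1 TPM or more against 4 in HFD and 4 in NAC_HFD. The 3 comparisons share their libraries and are not independent of one another.

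Between 10864 and 11316 genes per library reached 1 TPM. Alb, which encodes albumin and defines hepatocytes, was at 22101 to 38257 TPM, and 4 Y-linked genes were above 1 TPM in all 12 libraries (Ddx3y at 11.8 to 19.5 TPM). Libraries differed within the high fat groups in a list of 20 male-biased liver genes, 19 of them in the table, chosen after earlier results of these data were known. Their summed TPM was 36580 to 41860 in NFD. It was 11801, 14758, 39295 and 35297 in HFD replicates 1 to 4, and 41834, 46720, 18580 and 16452 in NAC_HFD replicates 1 to 4. HFD replicates 1 and 2 and NAC_HFD replicates 3 and 4 therefore stand apart, and the summed female-biased list was highest in the same 4 libraries (355, 332, 280.2 and 203 TPM, against 109 to 191 TPM in the others). Of 10 tested genes of the female-biased list 3 were called in HFD against NFD, beside 2.78% of all tested genes. Cyp2b9 rose (5.24, adjusted p = 0.0102), while Cyp2c40 (-1.16, adjusted p = 0.0131) and Cyp2c69 (-1.47, adjusted p = 8.99e-05) fell. In NAC_HFD against NFD 2 of the 10 were called, beside 5.28% of all tested genes. They were Cyp2b9 (4.44, adjusted p = 0.0158) and Cyp2c69 (-1.55, adjusted p = 6.12e-05). The labels give nothing that divides the high fat groups in this way, and whether the 4 libraries carry the right group label was not tested. Counts of calls below are also given without those 4 libraries, an alternative chosen after the data were seen, which leaves 2 libraries in each high fat group.

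The genes lie on 4 chromosomes in the RefSeq annotation of GRCm38.p6, matched by symbol, and all 6 are protein coding. Sult1b1 (chr5:87513327-87538195) and Sult1d1 (chr5:87554650-87569006) are neighbours, 16454 bp apart, and Sult1e1 follows 6961 bp further on. Sult2a8 (chr7:14410686-14446780) is 18270 bp from Sult2a7. Sult1a1 is at chr7:126672865-126690443, Sult5a1 at chr8:123142843-123158914 and Sult1c2 at chr17:53829637-53845958.

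The start-site windows of the 3 genes whose HFD libraries all lay above all NFD libraries (Sult1b1, Sult5a1 and Sult1c2) are printed with that of Sult1d1, the neighbour whose groups overlapped. Each runs from 250 bases before to 50 bases after a RefSeq start site on the minus strand of GRCm38.p6, 5' to 3'. RefSeq lists 2 start windows for Sult1b1. Capitals mark matches, on either strand, of 8 motifs: the nuclear receptor half-site AGGTCA, the TATA box TATAAA, the HNF1 half-site GTTAAT, the CCAAT box, the FOXA core TGTTTAC, the antioxidant response element core TGACNNNGC, the C/EBP core TTGCNNAA and the HNF4 core CAAAGTCCA.
Sult1b1, outer start (chr5:87538146-87538445): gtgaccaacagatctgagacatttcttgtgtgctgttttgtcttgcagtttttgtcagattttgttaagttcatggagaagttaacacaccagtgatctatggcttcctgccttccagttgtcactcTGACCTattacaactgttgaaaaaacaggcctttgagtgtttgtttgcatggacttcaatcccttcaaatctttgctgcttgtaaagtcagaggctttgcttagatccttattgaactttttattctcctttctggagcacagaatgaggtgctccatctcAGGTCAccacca
Sult1b1, inner start (chr5:87536173-87536472): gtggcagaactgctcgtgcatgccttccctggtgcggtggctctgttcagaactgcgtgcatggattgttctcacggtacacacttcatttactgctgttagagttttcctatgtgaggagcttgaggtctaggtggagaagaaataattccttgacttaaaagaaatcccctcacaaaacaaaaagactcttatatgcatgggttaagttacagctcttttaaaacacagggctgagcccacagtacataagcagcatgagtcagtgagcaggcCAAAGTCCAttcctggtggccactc
Sult1d1 (chr5:87568957-87569256): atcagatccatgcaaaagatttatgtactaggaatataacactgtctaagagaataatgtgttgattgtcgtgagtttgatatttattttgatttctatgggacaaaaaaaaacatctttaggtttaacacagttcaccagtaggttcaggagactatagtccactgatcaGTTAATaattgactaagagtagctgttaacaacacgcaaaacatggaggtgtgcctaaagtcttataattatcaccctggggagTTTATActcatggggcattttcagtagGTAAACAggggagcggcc
Sult5a1 (chr8:123158231-123158530): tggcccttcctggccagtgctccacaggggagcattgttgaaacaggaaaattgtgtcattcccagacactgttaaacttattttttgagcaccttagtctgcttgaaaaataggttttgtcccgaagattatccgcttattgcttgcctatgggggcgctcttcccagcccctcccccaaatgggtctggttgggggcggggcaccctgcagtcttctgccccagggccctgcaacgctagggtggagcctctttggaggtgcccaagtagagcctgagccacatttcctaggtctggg
Sult1c2 (chr17:53845909-53846208): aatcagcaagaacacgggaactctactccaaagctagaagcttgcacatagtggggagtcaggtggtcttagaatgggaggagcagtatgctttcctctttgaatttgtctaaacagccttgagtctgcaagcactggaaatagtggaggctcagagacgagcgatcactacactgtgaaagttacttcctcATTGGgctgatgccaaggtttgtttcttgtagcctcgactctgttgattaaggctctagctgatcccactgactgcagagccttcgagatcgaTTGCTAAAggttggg

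The outer Sult1b1 window held AGGTCA at -123 on the opposite strand and at 39 on the strand of the gene, counted from the start site. The inner window held CAAAGTCCA at 26. AGGTCA occurs in 16.3% and CAAAGTCCA in 0.475% of 32851 RefSeq windows of this length. Among the 8 windows of the 6 genes, 2 held AGGTCA. The other was a Sult2a8 window, not printed here, with AGGTCA at -164 and -90 on the strand of the gene. The Sult1d1 window held GTTAAT at -79 (7.10% of windows), TATAAA at 6 on the opposite strand (13.6%) and TGTTTAC at 33 on the opposite strand (3.65%). Sult1c2 had a CCAAT match at -58 on the opposite strand (37.4%) and TTGCNNAA at 36 (10.8%). None of the 8 motifs matched in the Sult5a1 window, and TGACNNNGC (12.4% of windows) matched in none of the 8 windows of the 6 genes. The Sult5a1 window ends at 123158530, inside a gene that extends to 123158914, and the Sult1a1 window also lies inside its gene. The outer ends of these genes were not searched. No 2 motifs shared bases in the printed windows. A match describes letters in a window and shows no site in use.

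The 2 abundant members, Sult2a8 and Sult1a1, made up most of the summed TPM of the 6 genes in every group. By its mean over 12 libraries Sult2a8 (455 TPM) ranked 171 among the tested genes, followed by Sult1a1 (266 TPM, rank 281), Sult1d1 (42.2 TPM, rank 1641), Sult1b1 (15.0 TPM, rank 3970), Sult5a1 (11.3 TPM, rank 4901) and Sult1c2 (2.21 TPM, rank 9605). Their ranges over all 12 libraries did not overlap between Sult2a8 and Sult1d1, between Sult1a1 and Sult1d1, or between Sult1d1 and Sult1b1. The ranges of Sult2a8 (299 to 592 TPM) and Sult1a1 (211 to 323 TPM) overlapped, as did those of Sult1b1 (8.16 to 21.7 TPM) and Sult5a1 (6.04 to 20.1 TPM). The summed level was 680.1 ± 58.2 TPM (SD, n = 4) in NFD, 809 ± 47.9 TPM in HFD and 886 ± 90.9 TPM in NAC_HFD. Each HFD library, at 742 TPM or more, was above the highest NFD library at 737 TPM. Sult2a8 accounted for 55.5%, 57.8% and 58.7% of that sum in NFD, HFD and NAC_HFD, and Sult1a1 for 37.0%, 33.3% and 31.2%.

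**Figure D1:**
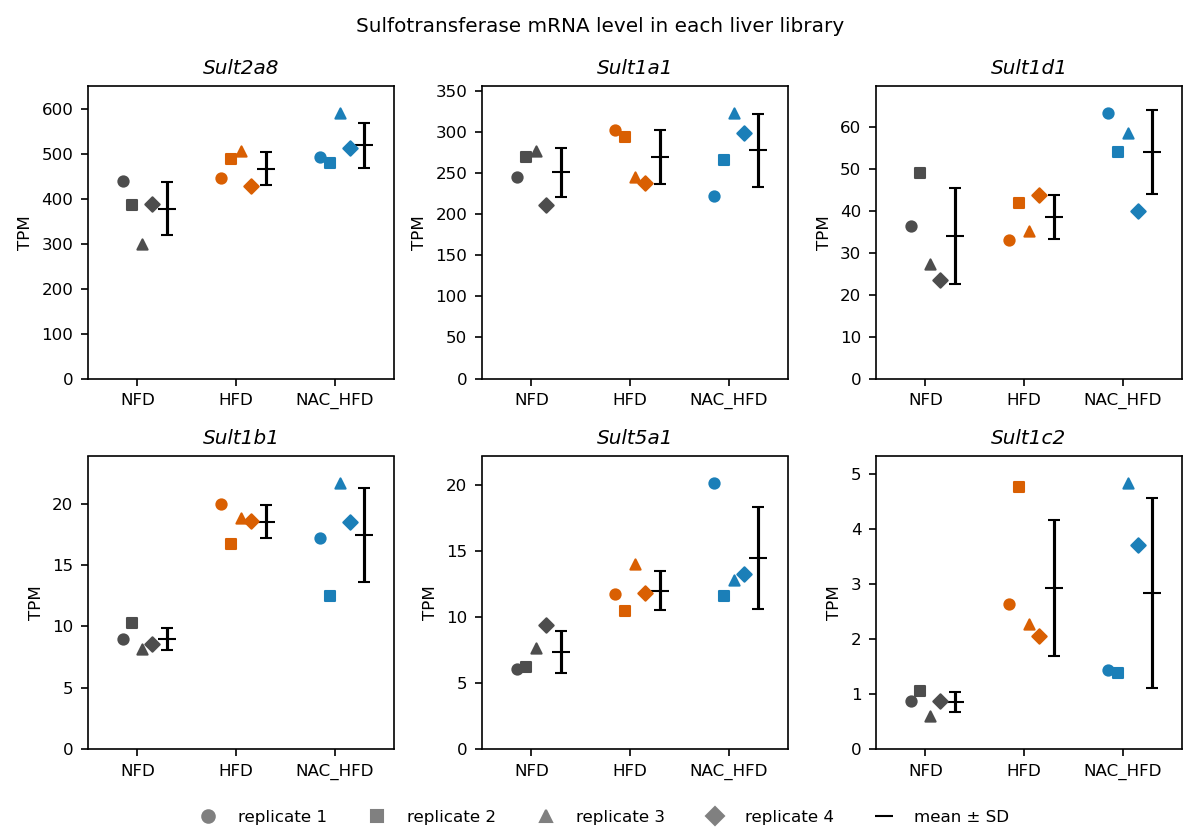
TPM of each of the 6 genes in each of 12 liver libraries, by diet group, with the mean and SD (n = 4) at the right of each group and an axis from 0 in every panel. The 4 HFD points of Sult1b1 (16.7 to 20.0 TPM) lie above all 4 NFD points (8.16 to 10.2 TPM), whereas the groups of Sult1a1 overlap.

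The high fat diet was compared with the normal diet first. Sult1b1 was 2.06-fold higher and Sult5a1 1.63-fold higher in HFD by the ratio of mean TPM, and both passed the test. Sult1c2 was 3.43-fold higher by the same ratio and did not pass. Sult2a8, Sult1a1 and Sult1d1 overlapped between the groups and were not called. Thus 2 of 6 genes were called, both higher, against 2.78% of all tested genes called in either direction and 2.19% called higher. In 3 of 6 genes all HFD libraries were above all NFD libraries, against 7.78% of tested genes (12.4% did not overlap in either direction). The 3 include Sult1c2, which passed the floor only through its high fat libraries, a filter that favours separation in this direction. The estimates were above 0 in 6 of 6, with a median log2 fold change of 0.48 beside 0.01 for all tested genes. When the 4 libraries low in male-biased genes were left out, 1 of the 6 was called, Sult1b1, and 37 of all genes were called, against 316 with every library.

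Sult1b1 encodes an enzyme that sulfonates thyroid hormones and small phenols. It was at 9.0, 10.2, 8.16 and 8.59 TPM in NFD replicates 1 to 4. In HFD replicates 1 to 4 it was at 20.0, 16.7, 18.9 and 18.6 TPM, and in NAC_HFD replicates at 17.2, 12.5, 21.7 and 18.5 TPM. Each of the 8 libraries from high fat feeding was above each NFD library, and NAC_HFD replicate 2 was the lowest of the 8. The log2 fold change in HFD was 0.97 (SE 0.14, 95% confidence interval 0.68 to 1.26, adjusted p = 0.00323), the 17th smallest p of the 11376 genes. It was called in 8 of 8 fits that left out 1 library, with a highest adjusted p of 0.0163, and without the 4 libraries low in male-biased genes it was 0.98 (adjusted p = 0.0320).

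Sult5a1 is a little-studied member of the family. It was at 6.04, 6.20, 7.69 and 9.43 TPM in NFD and at 11.7, 10.4, 14.0 and 11.8 TPM in HFD. In NAC_HFD it was at 20.1, 11.6, 12.8 and 13.2 TPM. The groups from high fat feeding lay above NFD without overlap, and NAC_HFD replicate 1 was the highest library. The log2 fold change in HFD was 0.65 (SE 0.16, interval 0.30 to 1.0, adjusted p = 0.0499). That call rests on the threshold, since it was kept in 1 of 8 fits that left out 1 library, with a highest adjusted p of 0.126 without NFD replicate 1, and it was lost without the 4 libraries low in male-biased genes (log2 fold change 0.75, adjusted p = 0.246).

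Sult1c2 was the lowest of the 6 genes. It was at 0.87, 1.06, 0.61 and 0.88 TPM in NFD, and 1 of these 4 libraries reached the floor of 1 TPM. It was at 2.64, 4.76, 2.28 and 2.05 TPM in HFD and at 1.43, 1.38, 4.84 and 3.71 TPM in NAC_HFD. All 8 libraries from high fat feeding were above all NFD libraries, and they spread over more than 3-fold among themselves. The log2 fold change in HFD was 1.04 (SE 0.28, interval 0.42 to 1.66, adjusted p = 0.0733), and without the 4 libraries low in male-biased genes it was 0.78 (adjusted p = 0.0637). With a pseudocount of 0.1 TPM in place of 1 it was 1.61 and called (adjusted p = 0.0464), with a pseudocount of 5 TPM it was 0.43 (adjusted p = 0.122), and the fit of the 2 groups alone called it (adjusted p = 0.0149). In the authors' deposited table, whose test the sources do not name, the single Sult1c2 transcript had a fold change of 3.41 for HFD over NFD and an adjusted p of 0.00802.

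Sult1c2 and Sult1a1 were highest in the libraries with the lowest sums of the male-biased list. Sult1c2 was at 2.64 and 4.76 TPM in HFD replicates 1 and 2 and at 4.84 and 3.71 TPM in NAC_HFD replicates 3 and 4, the 4 libraries low in that list, and at 1.38 to 2.28 TPM in the other 4 libraries from high fat feeding. Sult1a1, the main phenol sulfotransferase of liver, was at 302, 294, 323 and 299 TPM in those same 4 libraries. Its other 8 libraries, NFD included, were at 211 to 277 TPM. Sult1b1 did not separate in this way, with 16.7 to 21.7 TPM in the 4 libraries and 12.5 to 18.9 TPM in the other 4 from high fat feeding. These libraries were picked by a measured sum, so no test was made, and the part of the male-biased list in these levels was not tested.

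**Figure D2:**
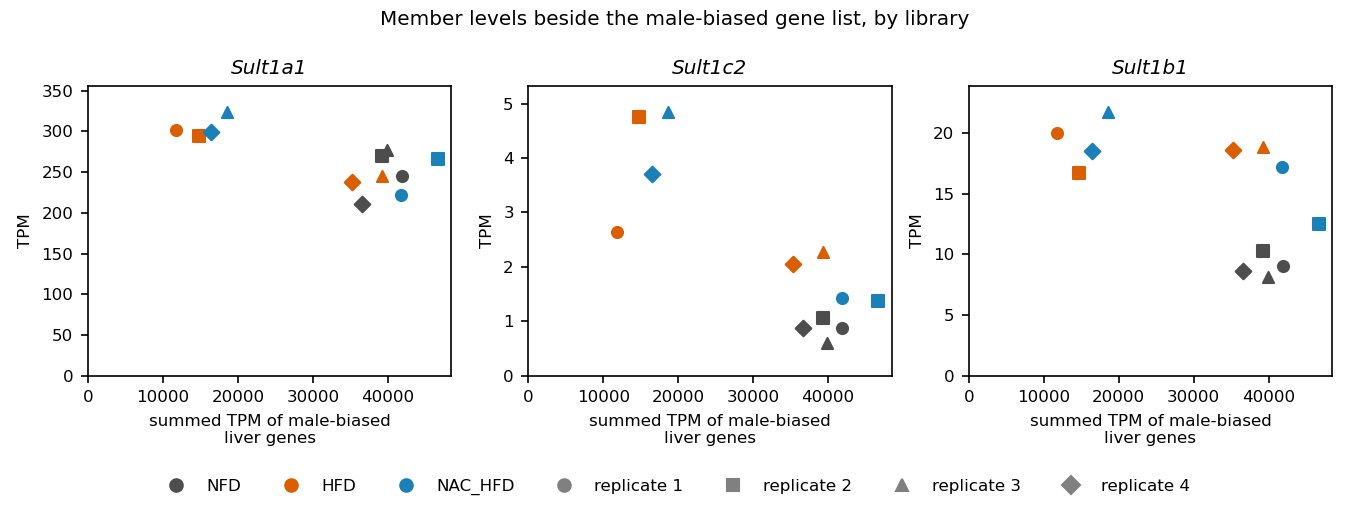
TPM of Sult1a1, Sult1c2 and Sult1b1 against the summed TPM of the male-biased liver genes, 1 point per library with colour for the group and shape for the replicate number. The 4 libraries at 11801 to 18580 summed TPM hold the 4 highest Sult1a1 values (294 to 323 TPM) and the 4 highest Sult1c2 values (2.64 to 4.84 TPM).

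By diet group, Sult1a1 was at 250.6 ± 29.7 TPM in NFD, 269.7 ± 32.8 TPM in HFD and 277 ± 44.1 TPM in NAC_HFD (SD, n = 4 each). Its log2 fold change in HFD was 0.11 (SE 0.13, interval -0.18 to 0.39, adjusted p = 0.717), so a change of the size seen in Sult1b1 lies outside this interval. Without the 4 libraries low in male-biased genes the estimate was -0.05 (adjusted p = 0.927). Sult2a8, of the hydroxysteroid class and reported to sulfonate bile acids in mouse liver, was at 440.2, 386, 299 and 388 TPM in NFD, against 446, 488, 506 and 428 TPM in HFD. NFD replicate 1 was above HFD replicate 4, and the log2 fold change was 0.31 (SE 0.12, adjusted p = 0.178). Sult1d1, which sulfonates dopamine and other catecholamines in mice, was at 36.5, 49.1, 27.2 and 23.4 TPM in NFD, against 32.9, 41.9, 35.1 and 43.8 TPM in HFD. The HFD values lay inside the NFD range, and the log2 fold change was 0.22 (SE 0.20, adjusted p = 0.605).

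The group given NAC with the high fat diet was compared with NFD, which differs from it in both diet and NAC. Sult1b1, Sult5a1 and Sult2a8 were higher in NAC_HFD and passed the test, so 3 of 6 genes were called, all higher, against 5.28% of all tested genes called and 1.76% called higher. In 4 of 6 genes, these 3 and Sult1c2, all NAC_HFD libraries were above all NFD libraries, against 3.52% of tested genes (12% in either direction). Sult1c2 passed the floor only through its high fat libraries, which favours its separation in this direction. The median log2 fold change of the 6 genes was 0.77, beside -0.07 for all tested genes. Without the 4 libraries low in male-biased genes none of the 6 was called by limma, and 15 of all genes were called, against 601 with every library. In that fit 5 of the 6 had an unadjusted p under 0.05. The number of all genes under that p was not counted there, and with every library it was 2574 of 11376.

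The log2 fold change of Sult1b1 in NAC_HFD over NFD was 0.86 (SE 0.14, interval 0.57 to 1.15, adjusted p = 0.00601), and 0.65 without the 4 libraries (adjusted p = 0.0901). For Sult5a1 it was 0.88 (SE 0.16, interval 0.53 to 1.23, adjusted p = 0.0118), and 0.99 without them (adjusted p = 0.0970). Both were called in 8 of 8 fits that left out 1 library. Sult2a8 reached 493, 480.5, 592 and 513 TPM in NAC_HFD replicates 1 to 4, each above the highest NFD library. Its log2 fold change over NFD was 0.47 (SE 0.12, interval 0.21 to 0.73, adjusted p = 0.0413), and it was called in 2 of 8 fits that left out 1 library, with a highest adjusted p of 0.113 without NAC_HFD replicate 3. Without the 4 libraries it was 0.38 (adjusted p = 0.323).

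The other 3 genes did not pass in this comparison. Sult1d1 was at 63.4, 54.1, 58.6 and 40.0 TPM in NAC_HFD, where NFD replicate 2, at 49.1 TPM, was above NAC_HFD replicate 4. Its log2 fold change over NFD was 0.69 (SE 0.20, interval 0.25 to 1.13, adjusted p = 0.0701), and leaving out NFD replicate 2 gave 0.88 (adjusted p = 0.0174). Sult1c2 had 0.94 (SE 0.28, adjusted p = 0.0760). That estimate was 0.38 without the 4 libraries low in male-biased genes (adjusted p = 0.243) and 0.40 with a pseudocount of 5 TPM (adjusted p = 0.120), and it was called with a pseudocount of 0.1 TPM (1.44, adjusted p = 0.0486) and without NAC_HFD replicate 1 (adjusted p = 0.0443) or 2 (adjusted p = 0.0440). Sult1a1 had 0.14 (SE 0.13, adjusted p = 0.567).

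NAC_HFD was set against HFD to compare mice with and without NAC on the same diet. None of the 6 genes was called by limma, and 0% of the 11376 genes were, although 1870 genes had an unadjusted p under 0.05. Among the 6 genes that was so for Sult1d1 (log2 fold change 0.47, interval 0.03 to 0.91, unadjusted p = 0.0385, adjusted p = 0.276). The Sult1d1 mean of 54.0 ± 10.1 TPM in NAC_HFD stood beside 38.4 ± 5.23 TPM in HFD, and the groups overlapped because NAC_HFD replicate 4 was below HFD replicates 2 and 4. With the 4 libraries low in male-biased genes left out, limma again called 0 of all genes and none of the 6. Of the 6, 1 had an unadjusted p under 0.05, a count not made over all genes in that fit. The estimate of Sult1c2 then went from -0.10 to -0.40 and that of Sult1b1 from -0.10 to -0.33. In none of the 6 genes did the 2 groups separate, against 10.2% of tested genes that separated in either direction. The intervals were -0.39 to 0.19 for Sult1b1, -0.13 to 0.58 for Sult5a1, -0.72 to 0.52 for Sult1c2, -0.11 to 0.41 for Sult2a8 and -0.25 to 0.32 for Sult1a1. A missed threshold does not show equal levels, and the interval of Sult1c2 includes changes in either direction of more than 0.5 on the log2 scale.

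**Figure D3:**
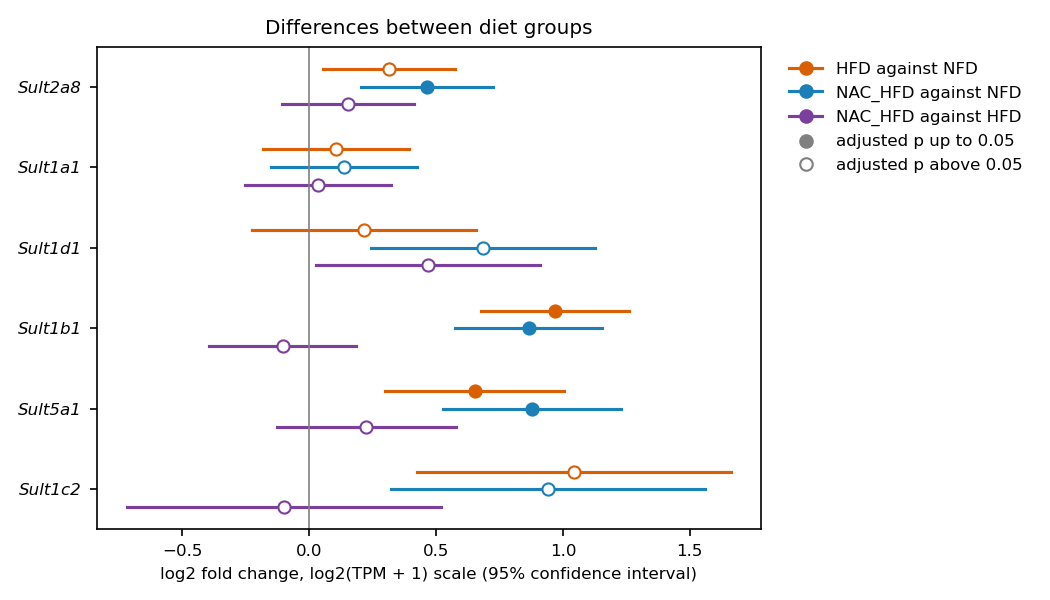
Log2 fold change of each gene, on the log2(TPM + 1) scale, with its 95% confidence interval in the 3 comparisons. Filled points passed the test (Sult1b1 and Sult5a1 against NFD in both high fat groups, and Sult2a8 in NAC_HFD against NFD), and no point of NAC_HFD against HFD is filled.

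Transcript tables show which isoforms carried these values. The 6 genes had 16 mRNA transcripts, of which 15 were tested, and 4 transcripts listed as lncRNA, whose TPM the gene table adds to the gene. Isoforms of a gene share sequence, so their split is an estimate of the authors' quantification. In HFD against NFD 2 of the 15 were called, both higher, against 0.621% of 18183 tested transcripts called and 0.555% called higher. In NAC_HFD against NFD the same 2 were called, against 1.41% and 0.847%. All HFD libraries were above all NFD libraries for 4 of the 15 (6.37% of tested transcripts), and all NAC_HFD libraries for 7 of the 15 (3.58%). Both counts include the Sult1c2 transcript, which passed the floor only through its high fat libraries. In NAC_HFD against HFD none of the 15 was called, against 0.0055%. At an unadjusted p under 0.05 there were 3, beside 2202 of 18183 tested transcripts. They were ENSMUST00000106372 of Sult1a1, ENSMUST00000113314 of Sult1d1 and ENSMUST00000063509 of Sult2a8. With the 4 libraries low in male-biased genes left out, limma called none of the 15 in any comparison. At an unadjusted p under 0.05 there were 5 in HFD against NFD, 6 in NAC_HFD against NFD and 1 in NAC_HFD against HFD. The number of all transcripts under that p was not counted in these fits.

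Sult1b1 was mostly ENSMUST00000120150, at 5.76, 6.23, 4.58 and 5.95 TPM in NFD, against 13.3, 12.8, 12.7 and 12.9 TPM in HFD. The HFD libraries were closely spaced, and all were more than 2 times the highest NFD value. This transcript was at 10.7, 8.05, 12.9 and 11.4 TPM in NAC_HFD. Its log2 fold change over NFD was 1.08 in HFD (SE 0.13, adjusted p = 0.00469) and 0.82 in NAC_HFD (adjusted p = 0.0159). The call in HFD was kept in 9 of 10 other settings and in 8 of 8 fits without 1 library, and was lost without the 4 libraries (1.06, adjusted p = 0.122). The call in NAC_HFD was kept in 6 of 10 and 7 of 8, and without the 4 libraries the adjusted p was 0.214. It made up 62.5%, 69.9% and 62.1% of the gene in NFD, HFD and NAC_HFD. The other main transcript, ENSMUST00000031199, averaged 3.18 ± 0.560 TPM in NFD against 5.19 ± 1.27 TPM in HFD and was not called (0.55, adjusted p = 0.205). In the authors' deposited table ENSMUST00000120150 had a fold change of 2.33 for HFD over NFD, with an adjusted p of 3.89e-10.

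In Sult5a1 the called transcript was ENSMUST00000137998. It was at 2.56, 3.0, 4.07 and 3.21 TPM in NFD. In HFD it was at 6.07, 6.04, 6.91 and 6.40 TPM, and in NAC_HFD at 9.86, 6.28, 6.16 and 6.29 TPM. The groups from high fat feeding were again apart from NFD, and NAC_HFD replicate 1 stood above the other 3. The log2 fold change over NFD was 0.82 in HFD (adjusted p = 0.0380) and 0.94 in NAC_HFD (adjusted p = 0.0159). The call in HFD was kept in 7 of 10 other settings but in 1 of 8 fits without 1 library, with a highest adjusted p of 0.120 without HFD replicate 4, and without the 4 libraries the adjusted p was 0.320. The call in NAC_HFD was kept in 6 of 10 and 8 of 8, and without the 4 libraries the adjusted p was 0.160. The second mRNA, ENSMUST00000000755, had 0.35 in HFD (adjusted p = 0.456). A transcript listed as lncRNA, ENSMUST00000126951, made up 25.9%, 21.3% and 26.2% of the gene in the 3 groups. With lncRNA left out, an alternative chosen after the data were seen, Sult5a1 had 0.74 in HFD (adjusted p = 0.0229).

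Sult2a8 was spread over 3 mRNAs of similar level. ENSMUST00000168252 was at 113 ± 31.9 TPM in NFD, 153 ± 13.7 TPM in HFD and 169 ± 9.47 TPM in NAC_HFD. ENSMUST00000063509 was at 115 ± 14.2, 131 ± 9.07 and 161 ± 22.7 TPM. All NAC_HFD libraries were above all NFD libraries for both, and neither passed (adjusted p = 0.0858 and 0.0706). ENSMUST00000125941 was at 84.3 ± 18.7, 103 ± 2.11 and 107 ± 23.5 TPM. A transcript listed as lncRNA, NONMMUT060008.2, ranged from 7.96 to 89.3 TPM and made up 2.66% to 20.5% of the gene, with both of these extremes of the share in NFD libraries. Reads of Sult2a8 may also be shared with its close relatives in the gene cluster, so its level carries that uncertainty.

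Sult1a1 was 95% to 97% ENSMUST00000106373 by group mean. Its minor mRNA ENSMUST00000106372 was at 7.62 ± 1.5 TPM in NFD, 12.5 ± 2.30 TPM in HFD and 6.72 ± 4.82 TPM in NAC_HFD. All HFD libraries were above all NFD libraries for this transcript, and the difference was not called (0.65, adjusted p = 0.387). Sult1c2 and Sult1d1 had 1 transcript each.

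**Figure D4:**
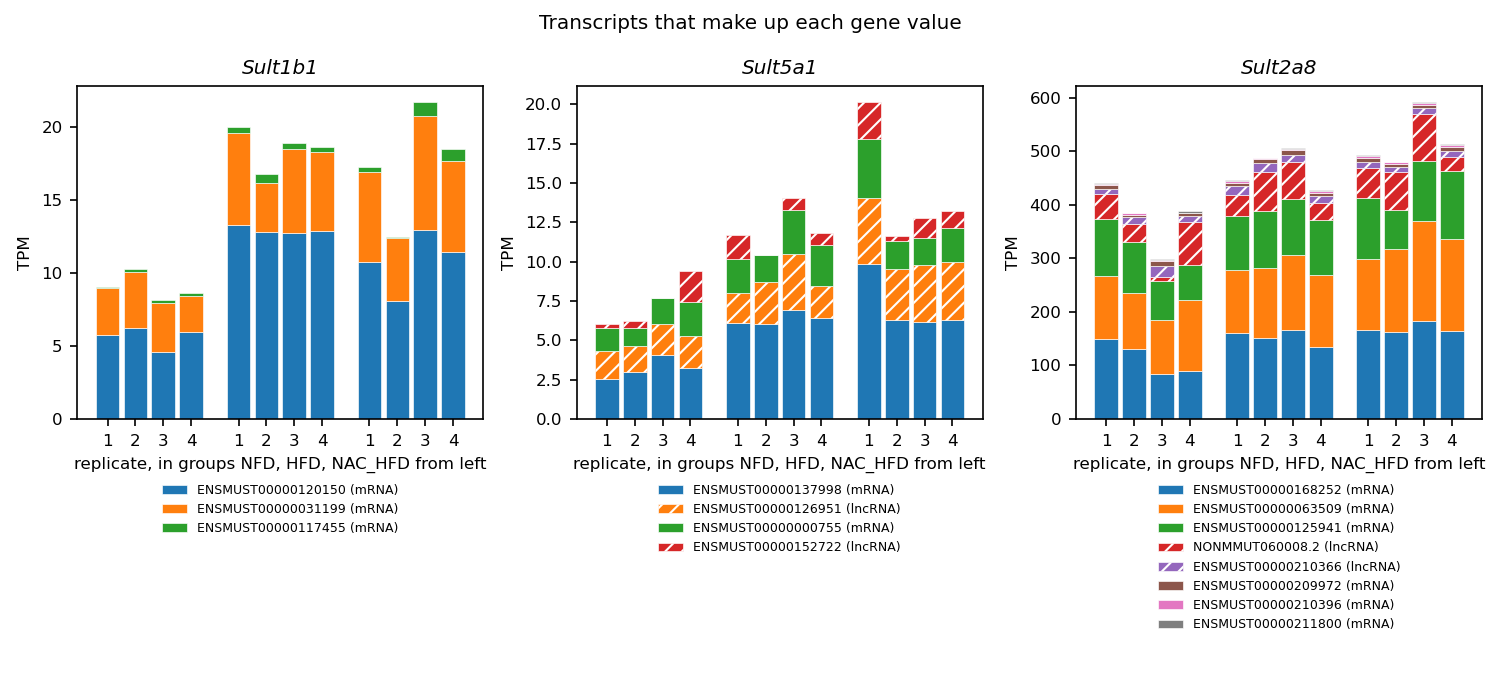
Stacked TPM of the transcripts of Sult1b1, Sult5a1 and Sult2a8 in each library, with hatching for transcripts listed as lncRNA. In Sult1b1 ENSMUST00000120150 rises from 4.58 to 6.23 TPM in NFD to 12.7 to 13.3 TPM in HFD, and in Sult2a8 the lncRNA segment differs widely among NFD libraries.

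Of 15 other cytosolic sulfotransferase genes looked for, 7 were in the gene table and 1 passed the floor. That gene, Sult2a7, the neighbour of Sult2a8, was at 2.10, 2.77, 3.86 and 2.23 TPM in NFD. In HFD it was at 6.86, 4.16, 2.95 and 9.06 TPM, and in NAC_HFD at 3.17, 3.56, 10.04 and 6.62 TPM. NFD replicate 3 overlapped both high fat groups, and the log2 fold change over NFD was 0.78 in HFD (SE 0.34, adjusted p = 0.242) and 0.78 in NAC_HFD (adjusted p = 0.202). Sult3a1, a female-biased gene, was listed at 0 in all 4 NFD libraries, at 0.88, 0.44, 0.04 and 0.40 TPM in HFD, and at 0, 0, 0.14 and 0.08 TPM in NAC_HFD. Sult1e1, the oestrogen sulfotransferase next to Sult1d1, stayed at 0.04 to 0.93 TPM in all libraries, and Sult2a1, Sult2a2, Sult2b1 and Sult4a1 at up to 0.14 TPM.

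Of 11 tested genes that supply sulfate and PAPS, 1 was called in HFD against NFD (2.78% of all tested genes) and 1 in NAC_HFD against NFD (5.28%). Estimates were above 0 in 11 of 11 in HFD against NFD, in 2 of 11 in NAC_HFD against HFD and in 4 of 11 in NAC_HFD against NFD, with medians of 0.06, -0.18 and -0.10 beside 0.01, -0.08 and -0.07 for all tested genes. Slc26a2, a sulfate transporter of the cell membrane, rose from 2.04 ± 0.541 TPM in NFD to 3.35 ± 0.360 TPM in HFD (0.53, adjusted p = 0.0379) and was at 2.28 ± 0.137 TPM in NAC_HFD. Papss2, the main PAPS synthase of liver, was at 51.4 ± 5.30 TPM in NFD, 69.0 ± 11.4 TPM in HFD and 80.3 ± 5.83 TPM in NAC_HFD. It passed in NAC_HFD against NFD (0.64, SE 0.12, adjusted p = 0.0129) and not in HFD against NFD (0.41, adjusted p = 0.0869). Papss1, the second synthase, was at 4.73, 5.67 and 3.84 TPM by group mean. Slc26a1, a sulfate exchanger of hepatocytes, was at 67.9, 69.7 and 62.1 TPM, and Bpnt1, which breaks down the PAP left by the reaction, at 40.0, 41.5 and 37.1 TPM. These 3 genes passed in no comparison.

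The nuclear receptors and stress regulators reported to control sulfotransferase genes gave 1 call of 13 tested in HFD against NFD (2.78% of all tested genes) and 2 in NAC_HFD against NFD (5.28%). Nr1i2, which encodes the xenobiotic receptor PXR, was at 21.9 ± 4.17 TPM in NFD, 34.9 ± 1.23 TPM in HFD and 33.2 ± 2.08 TPM in NAC_HFD. It rose in HFD (0.67, SE 0.11, adjusted p = 0.00854) and in NAC_HFD against NFD (0.59, adjusted p = 0.0116). Nfe2l2, which encodes the antioxidant regulator NRF2, was at 31.8 ± 2.77, 31.3 ± 2.44 and 23.4 ± 2.67 TPM and fell in NAC_HFD against NFD (-0.43, adjusted p = 0.0294). The medians of the list were 0.09 in HFD and -0.11 in NAC_HFD against NFD.

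Among 11 tested sulfatases and their activating factors, Arsb rose in both high fat groups against NFD. It was at 7.99 ± 0.488, 11.3 ± 0.998 and 10.6 ± 1.14 TPM (adjusted p = 0.0252 and 0.0463). Sumf2, related to the sulfatase-activating enzyme, fell in NAC_HFD against NFD, from 5.21 ± 1.009 to 3.27 ± 0.412 TPM (adjusted p = 0.0263). Against NFD 1 of the 11 was called in HFD and 2 in NAC_HFD, beside 2.78% and 5.28% of all tested genes. The list's medians against NFD were 0.13 in HFD and 0.02 in NAC_HFD. Of 9 tested Golgi sulfotransferases, which sulfonate glycans and proteins, and of 9 tested transporters of sulfoconjugates, limma called none in any comparison. At an unadjusted p under 0.05 there were 0, 1 and 3 Golgi enzymes and 3, 2 and 1 transporters in HFD against NFD, NAC_HFD against HFD and NAC_HFD against NFD. Of all 11376 tested genes 2172, 1870 and 2574 were under that p in the same order.

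In bulk tissue, more cells of a type and more RNA per cell cannot be told apart. Of 9 tested hepatocyte markers 1 was called, Cyp2e1 in NAC_HFD against NFD (0.61, adjusted p = 0.00816, beside 5.28% of all tested genes called). Estimates were above 0 in 3 of the 9 in that comparison, with a list median of -0.01. The summed level of the list was 50999 to 56462 TPM in NFD, 45234 to 60994 TPM in HFD and 50067 to 67986 TPM in NAC_HFD. Of 10 tested pericentral markers Lect2 was called higher in HFD (1.0, adjusted p = 0.000324) and in NAC_HFD against NFD (0.66, adjusted p = 0.00601), and Gulo in NAC_HFD against NFD (0.59, adjusted p = 0.00666). These were 1 and 2 calls of 10, beside 2.19% and 1.76% of all tested genes called higher. Pericentral estimates against NFD were above 0 in 6 of 10 in HFD and 3 of 10 in NAC_HFD. Their medians were 0.09 and -0.07, beside 0.01 and -0.07 for all tested genes. Kupffer cell markers, 12 of 12, had estimates above 0 in HFD against NFD, with a median of 0.56. In NAC_HFD against HFD 0 of 12 were above 0, with a median of -0.71, and in NAC_HFD against NFD 2 of 12. At an unadjusted p under 0.05 there were 5 and 9 in the first 2 of these comparisons, beside 2172 and 1870 of all 11376 tested genes. None was called by limma. Their summed level was 87.3 to 163 TPM in NFD, 116 to 290.3 TPM in HFD and 81.6 to 159 TPM in NAC_HFD. Summed adipose markers were at 414 to 861 TPM in NFD, 1903 to 2086 TPM in HFD and 1256 to 1800 TPM in NAC_HFD, nearly all of it Car3, which hepatocytes also express. Of 4 tested adipose markers 2 were called higher in HFD against NFD, beside 2.19% of all tested genes, with a list median of 1.38. They were Car3 (1.56, adjusted p = 0.00316), also called in NAC_HFD against NFD (1.18, adjusted p = 0.0102), and Cfd (3.03, adjusted p = 0.0200), which was at 0.05 to 0.58 TPM in NFD, 4.74 to 32.7 TPM in HFD and 0.11 to 1.75 TPM in NAC_HFD. Adipoq and Plin1, which define fat cells, reached 0.15 and 0.27 TPM in HFD, and Adipoq was listed at 0 in 8 libraries. Summed gut epithelium markers were at 63.7 to 94.8, 116 to 140.0 and 69.6 to 77.5 TPM. In HFD against NFD 1 of the 2 tested, Fabp2, was called higher (0.79, adjusted p = 0.0296), beside 2.19% of all tested genes. Fabp2 means were 55.2, 93.6 and 57.7 TPM in NFD, HFD and NAC_HFD. Lgals4 was at 12.3 to 37.6, 26.2 to 37.0 and up to 18.6 TPM, and Vil1 and Muc2, which define gut epithelium, were at up to 0.32 and 0.62 TPM. The bile duct gene Krt19 was at 0.23 to 1.08 TPM. The part of these lists in the sulfotransferase levels was not tested.

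For each gene the tested genes with the most similar profile over the 12 libraries were found by Pearson's r on log2(TPM + 1), as a description across libraries that share the 3 diet groups. For Sult1b1 they were Dnmbp (r = 0.96), Agxt2 (0.96) and Cyp2b9 (0.96), and with the group means removed r was 0.85, 0.86 and 0.72. For Sult1c2 they were Anxa4 (0.95), Hpgd (0.94) and Uroc1 (0.94), and for Sult2a8 Serpina6 (0.94), Pipox (0.94) and Arhgef26 (0.93). The profile of Sult1a1 was nearest to Pdcd4 (0.91), Tnfrsf19 (0.89) and Selenbp1 (0.88), and these kept r of 0.92, 0.92 and 0.92 with the group means removed. Sult1d1 was nearest to Serpina1c (0.89), Fam222b (0.85) and Nucks1 (0.85), and Sult5a1 to Cpox (0.88), Osbpl5 (0.88) and Tpm2 (0.87). These genes were picked as the highest of 11376, so high values are built into the choice.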

How the data were processed

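TPM values for genes, mRNA transcripts and lncRNA transcripts were made and deposited by the authors. The tools fastp, HISAT and RSEM and the build GRCm38 are named in the submitters' processing notes, and versions and settings are not given in these sources. Liver total RNA was treated with DNase, per the labels' protocols. Summing a gene's transcripts of both kinds gave the gene value, within 0.1 TPM or 1 percent, for 19252 of 19252 genes. The deposited comparison tables hold the authors' ratios (fold changes), log2 fold changes and p-values per the file headers, and 32 columns that repeat library values there were not used.

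Groups and replicate numbers came from the labels. The 6 genes and all gene lists were chosen with earlier results of these data known. Genes and, separately, mRNA transcripts at or above 1 TPM in at least 4 of 12 libraries were fitted on log2(TPM + 1) with 3 group means over 12 libraries (9 residual degrees of freedom) in R 4.3.3 with limma 3.58.1 (lmFit, then eBayes, trend and robust on). Tests were two-sided, with Benjamini-Hochberg adjustment over all tested genes or transcripts of a comparison. Beside the 6 genes, the text names members past the threshold of the lists of sulfate supply, sulfatases, regulators and transporters, 4 fixed sulfate genes and the 3 genes nearest in profile to each gene. Genes of the marker and sex-biased lists were named after their values were seen. The fit was tested on simulated data for HFD against NFD (11376 genes), where 89.5% of 200 genes changed by 1 on the log2 scale and 99.5% of 200 changed by 2 were recovered, with 3 and 10 false calls. The simulated noise was independent between genes and libraries. These rates therefore do not cover changes below 1, or libraries that differ in many genes together as the 4 low in male-biased genes do. Alternatives changed the pseudocount, floor, scaling, variance model, samples fitted, replicate block and lncRNA content, and left out libraries. Python 3.11.15 and pandas 2.3.3 were used for the tables, and sequences came from RefSeq (GRCm38.p6).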

Additional observations from a re-analysis of the deposited data

How the results depend on the processing

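Sult1b1 in HFD against NFD was called in all 12 other settings tried and in all 8 fits without 1 library. The 2 genes called in that comparison fell to 1, through loss of Sult5a1, with a pseudocount of 5, no floor, median-of-ratios, quantile or within-table scaling, eBayes without trend or robust, the replicate block, or without the 4 libraries low in male-biased genes, and were 1 to 2 without single libraries. Over all genes, HFD against NFD gave 168 calls with no floor, 37 without the 4 libraries and 90 to 298 without single libraries, against 316. NAC_HFD against HFD gave 24 with a pseudocount of 5, 3 with the block and 0 to 64 without single libraries, against 0. NAC_HFD against NFD gave 289 with no floor, 188 from the 2 groups alone, 15 without the 4 libraries and 211 to 618 without single libraries, against 601, and 0 of the 6 genes, against 3, without the 4 libraries, where fewer samples were fitted. Other causes were not tested.

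Of the member transcripts, HFD against NFD gave 1 call with no floor or the block, 0 without the 4 libraries and 1 to 2 without single libraries, against 2. NAC_HFD against NFD gave 0 with no floor, from the 2 groups alone, with the block or without the 4 libraries, 4 with median-of-ratios scaling and 1 to 3 without single libraries, against 2. Estimates that changed sign were all uncalled. Without the 4 libraries Sult1a1 was at -0.046 in HFD and -0.039 in NAC_HFD against NFD. In NAC_HFD against HFD Sult1c2 was at 0.021 with quantile scaling, and without single libraries Sult1c2 ranged from -0.34 to 0.10, Sult1b1 from -0.21 to 0.040 and Sult1a1 from -0.045 to 0.14.

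Higher against lower calls in NAC_HFD against NFD were 200 and 401, but 371 and 250 with median-of-ratios and 314 and 294 with quantile scaling, and in HFD against NFD 249 and 67, but 259 and 106, 259 and 160, and 194 and 93 within the table. The main fit did not pair samples by replicate number. Deviations of same-numbered libraries correlated at -0.17 to 0.18. The best match was the same number for HFD replicate 2 and NAC_HFD replicate 3, each against NFD, and in no other case. This cannot exclude pairing, because deviations from the mean of 4 libraries are tied to one another. With the replicate block 225, 3 and 406 genes were called in the 3 comparisons, and Sult5a1 in HFD and Sult2a8 in NAC_HFD against NFD had adjusted p of 0.0710 and 0.0849. Depth is unknown, so counting error could not be set beside these values.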
